A study of Homo sapiens with 18 samples.

Results

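The nucleolar genes that build ribosomes were followed through androgen and anti-androgen treatment of LNCaP cells, an androgen-responsive human prostate cancer line whose androgen receptor carries a mutation in its hormone-binding domain. The set holds 36 genes named for their role in ribosome biogenesis, each read from its brightest annotated probe by the mean over all 18 arrays. An annotated probe was found for 34 of the 36, among 20045 genes in all, and WDR43 and GNL3 had none in the annotation used. The one annotated probe of NPM1, which encodes the nucleolar chaperone nucleophosmin, read between 5.96 and 6.47 on the log2 scale, near the floor of the table. It did not pass the filter on dim probes (a mean above the 40th percentile, 6.31), so 33 genes of the set were tested among 14433.

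The cells were kept in medium with charcoal-stripped serum, which holds little steroid, and treated for 24 h. There were 6 groups of 3 Illumina arrays. DMSO was the vehicle control, and DHT (dihydrotestosterone, the natural agonist of the androgen receptor) was given at 10 nM by the labels, whereas the text of the study names a lower dose. Flutamide, an antagonist that competes with androgen for the receptor's hormone pocket, was given at 1 μM, MJC13, an antagonist that acts outside that pocket, at 30 μM, and each was given with and without DHT. The labels do not say whether the 3 arrays of a group came from separate cultures, so p-values measure only the spread between these arrays.

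Ribosome biogenesis begins in the nucleolus, where RNA polymerase I transcribes the precursor of ribosomal RNA. Small nucleolar ribonucleoproteins modify the precursor, those with box C/D guide RNAs by methylation and those with box H/ACA guide RNAs by pseudouridylation, and separate sets of assembly factors fold and cut it into the small and the large subunit. Many of these genes are known targets of the transcription factor MYC, which binds the E-box CACGTG, and enlarged nucleoli are a long-known feature of prostate cancer cells.

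The E-box was looked up in the promoters of the set, in RefSeq windows of build GRCh38.p14 that cover the 250 bases before each gene start. A window was listed for 30 of the 36 genes, and not for NOP58, NOLC1, RRP12, BOP1, RRS1 and RRP1B. The hexamer CACGTG reads the same on both strands. It was in a window of 6 of the 30 genes (LYAR, IMP4, DDX21, UTP14A, NOP10 and UTP20) and of 7.73% of all 27305 genes with a window. The windows printed here are those of LYAR, from the top of the DHT response described below, and of NOP10 and UTP20, from its bottom, each 5′ to 3′ along its gene with the E-box in capitals.
LYAR (chr4:4290022-4290271, minus strand): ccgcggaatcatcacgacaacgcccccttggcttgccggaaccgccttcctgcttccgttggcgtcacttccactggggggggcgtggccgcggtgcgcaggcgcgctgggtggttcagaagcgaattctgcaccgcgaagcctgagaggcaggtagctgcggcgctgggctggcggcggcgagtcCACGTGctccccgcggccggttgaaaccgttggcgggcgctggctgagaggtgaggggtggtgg
NOP10 (chr15:34343137-34343386, minus strand): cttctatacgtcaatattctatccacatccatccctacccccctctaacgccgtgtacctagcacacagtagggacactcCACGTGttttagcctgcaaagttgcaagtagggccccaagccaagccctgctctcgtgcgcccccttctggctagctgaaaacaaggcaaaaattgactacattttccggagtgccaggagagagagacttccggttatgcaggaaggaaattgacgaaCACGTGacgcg
UTP20 (chr12:101279855-101280104, plus strand): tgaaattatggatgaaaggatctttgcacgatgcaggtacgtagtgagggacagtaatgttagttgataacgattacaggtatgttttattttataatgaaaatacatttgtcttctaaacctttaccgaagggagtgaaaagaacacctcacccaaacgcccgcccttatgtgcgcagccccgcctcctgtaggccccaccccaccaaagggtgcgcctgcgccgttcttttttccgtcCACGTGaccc
The E-box began 64 bases before the LYAR start of this window and 10 bases before the start of UTP20. NOP10 held 2 copies, 170 and 11 bases before its start. LYAR, IMP4 and DDX21 each also had another listed window, for another start, without the hexamer. Between DHT and DMSO the log2 difference was 0.61 for LYAR, 0.38 for IMP4, 0.34 for DDX21 and 0.19 for UTP14A. It was -0.09 ± 0.15 SE for NOP10 and -0.26 ± 0.22 SE for UTP20, whose probe was dim. Of these genes, only LYAR had a 95% interval clear of zero (0.13 to 1.09), and another UTP20 probe gave 0.28. A match of letters describes the window and says nothing of binding in these cells.

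On the arrays as a whole, the deposited log2 signals ran from 5.81 to 14.82, and correlations between arrays of a group from 0.956 to 0.986. All 8 luminal prostate markers with an annotated probe passed the filter, HOXB13 and KRT8 among them, as did 1 of 5 basal, 6 of 8 fibroblast and smooth muscle, 3 of 4 endothelial, 3 of 6 immune and 1 of 4 neuroendocrine markers, and the androgen receptor gene had no annotated probe. The 6 androgen-regulated genes measured as a check differed by 0.91 to 2.53 between DHT and DMSO, and 3 of them were called (KLK2, ORM2 and TRPM8). The study had flagged KLK2 and ORM2 on its arrays and named TRPM8 as DHT-responsive, so these calls are no independent check. KLK2, the kallikrein gene next to that of PSA, read 6.60, 6.71 and 6.86 in DMSO and 8.91, 8.78 and 9.18 in DHT (log2 difference 2.23 ± 0.28 SE, adjusted p = 0.00181), and the groups lay far apart.

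The first comparison asked how the ribosome biogenesis genes stood in DHT relative to DMSO. Most lay higher in DHT by a small amount: 29 of 33 had a positive log2 difference and 4 a negative one (UTP20, NOP10, PES1 and NOP14), against 48.0% of all tested genes above zero. The median difference was 0.30, a 1.23-fold change, against -0.013 over all genes, and the differences ran from -0.26 for UTP20 to 0.80 for NOLC1. None of the 33 passed the test at an adjusted p of 0.05 in either direction, the lowest adjusted p being 0.361. Over all 28334 probes 0.176% were called higher and 0.0141% lower. At an unadjusted p of 0.05, 7 of the 33 were higher (NOLC1, BOP1, RRS1, LYAR, NOP16, TSR1 and DKC1) and 0 lower, where 4.86% and 3.42% of all probes were. The median half-width of the 95% interval of a gene was 0.48 log2, wider than the median difference, so single genes of this response were mostly not detectable with 3 arrays a group.

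**Figure D1:**
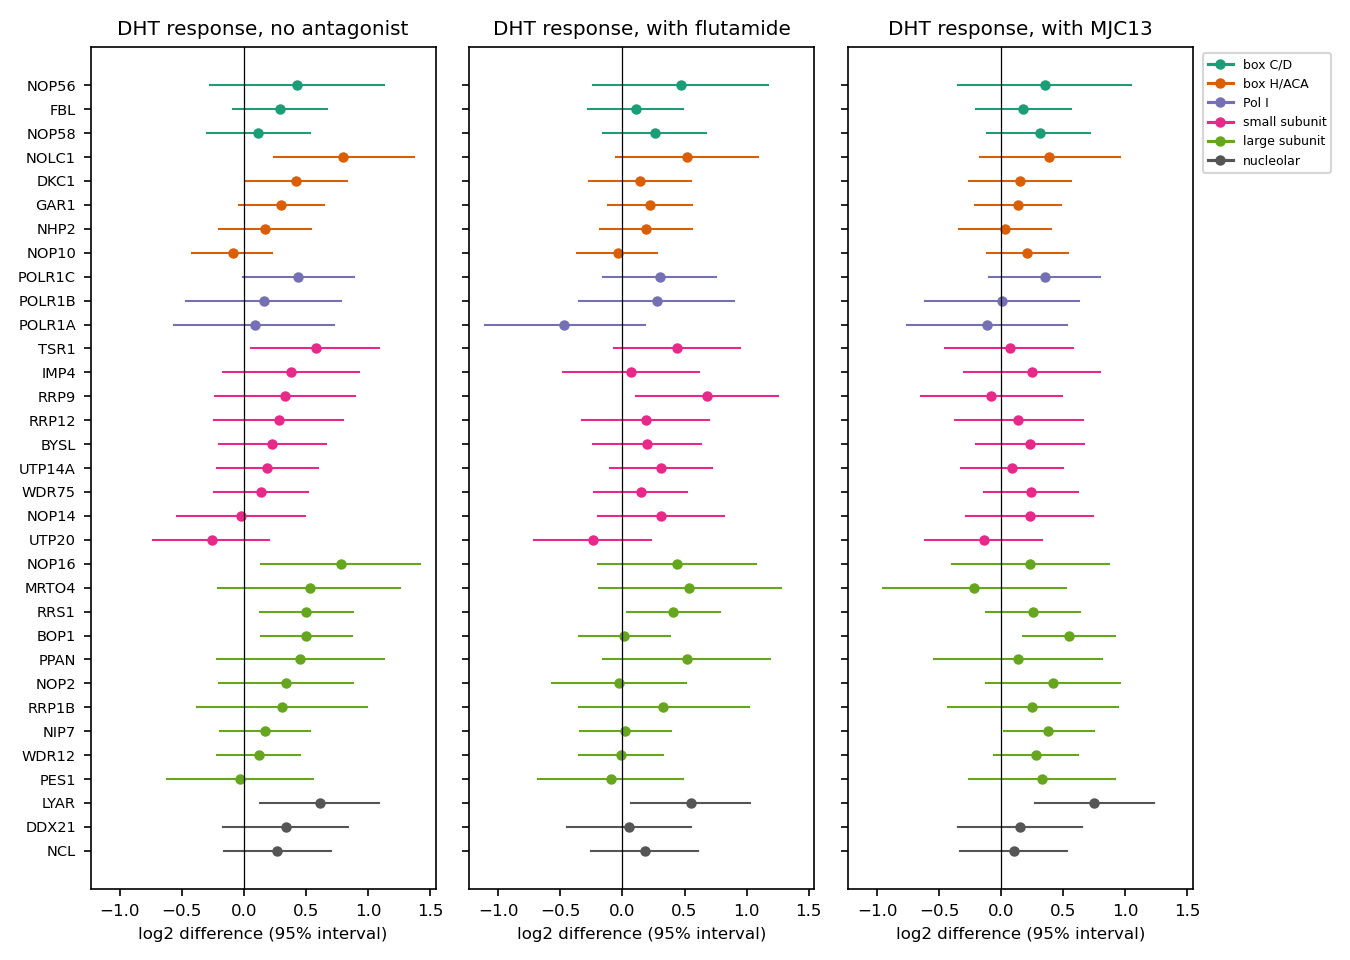
Log2 difference with its 95% interval (limma) for each of 33 genes, colored by role, for DHT against DMSO (left), DHT with flutamide against flutamide (middle) and DHT with MJC13 against MJC13 (right). The medians of the 3 panels are 0.30, 0.20 and 0.23, most points lie right of zero, and most intervals cross it.

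Overlap of the arrays was counted as well, which needs no model. In 10 of the 33 genes all 3 DHT arrays read above all 3 DMSO arrays (BOP1, FBL, GAR1, LYAR, MRTO4, NOLC1, NOP16, POLR1C, RRS1 and TSR1), and in 0 did they all read below. Over all probes 7.94% separated upwards and 6.16% downwards. The counts with an antagonist in both arms follow further on.

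Among the box H/ACA proteins the response was widest. NOLC1 encodes Nopp140, a nucleolar chaperone of snoRNPs, and it read 11.06, 10.65 and 11.19 in DMSO and 11.79, 11.58 and 11.95 in DHT. Every DHT array was above every DMSO array. The difference was 0.80 ± 0.27 SE, 1.75-fold (95% interval 0.24 to 1.37, adjusted p = 0.361, limma). With the title number of the arrays as a replicate block it became the single call among the 33 genes (0.80 ± 0.16 SE, adjusted p = 0.0173), in a fit that called 1.28% of all probes higher and 0.371% lower.

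The 4 core proteins of the H/ACA particle lay lower in the order of response. DKC1, the pseudouridine synthase dyskerin, differed by 0.42 (adjusted p = 0.583), GAR1 by 0.30 and NHP2 by 0.17. NOP10, the smallest of the core proteins and the brightest probe of this group, read 14.02, 14.23 and 14.37 in DMSO and 14.20, 14.02 and 14.12 in DHT. Its groups overlapped, at a difference of -0.09 ± 0.15 SE (95% interval -0.42 to 0.23). A second NOP10 probe gave -0.04.

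The box C/D particle contributed 3 core proteins, all above zero. NOP56, a scaffold protein of the particle, read 13.51, 13.62 and 13.27 in DMSO and 14.29, 13.33 and 14.09 in DHT. The second DHT array lay among the DMSO arrays while the other two were well above. The difference was 0.43 ± 0.34 SE (95% interval -0.27 to 1.13, adjusted p = 0.846), and it was 0.72 without DHT replicate 2 and 0.24 without DHT replicate 1. Dimmer NOP56 probes gave 0.24 and 0.82. FBL, the methyltransferase fibrillarin, differed by 0.29 and NOP58, the partner of NOP56, by 0.11.

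Of the RNA polymerase I group, POLR1C, a subunit shared by RNA polymerases I and III, read 11.72, 11.95 and 11.84 in DMSO and 12.19, 12.21 and 12.43 in DHT. The groups did not overlap and differed by 0.44 ± 0.22 SE (95% interval -0.01 to 0.89, adjusted p = 0.625). The catalytic subunits of polymerase I differed less, POLR1B by 0.16 ± 0.30 SE and POLR1A by 0.09 ± 0.31 SE. The POLR1A probe was dim, with a mean of 6.57 over all arrays.

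Of the small subunit factors 7 of 9 were above zero, with a median of 0.23. TSR1, a GTPase-like factor of late small subunit assembly, differed by 0.58 ± 0.24 SE (adjusted p = 0.530). WDR75, a component of the complex that binds the nascent precursor and the brightest probe of this group, read 12.34, 12.52 and 12.12 in DMSO and 12.54, 12.34 and 12.52 in DHT, a difference of 0.14 ± 0.18 SE with overlapping groups. UTP20, a large scaffold protein of the small subunit processome, read 6.35, 7.08 and 7.09 in DMSO and 6.51, 6.66 and 6.56 in DHT. The lowest and the highest of the 6 arrays were all DMSO arrays, and the difference was -0.26 ± 0.22 SE (95% interval -0.73 to 0.20), -0.51 without DMSO replicate 1 and -0.14 without DMSO replicate 3. Another UTP20 probe, dimmer still with a mean of 6.33, gave 0.28, and for NOP14, an early small subunit factor, the brightest probe gave -0.02 and the other 0.58. Between DHT and DMSO these were the 2 genes whose probes disagreed in sign, of 14 with several tested probes.

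Large subunit factors had the highest median, 0.40, with 9 of 10 above zero. BOP1, which with PES1 and WDR12 forms the PeBoW complex needed for maturation of the large subunit RNAs, read 11.85, 11.88 and 11.94 in DMSO and 12.37, 12.41 and 12.40 in DHT. The arrays within each group lay close together and the groups far apart, at a difference of 0.50 ± 0.17 SE, 1.42-fold (95% interval 0.14 to 0.87, adjusted p = 0.379). Of its partners, WDR12 differed by 0.12 ± 0.16 SE and PES1 by -0.03 ± 0.28 SE (95% interval -0.62 to 0.56), and differences between the genes were not tested. PES1 read 9.92, 10.75 and 9.87 in DMSO and 10.03, 10.22 and 10.21 in DHT, so 1 high DMSO array set its sign, and the difference was 0.26 without DMSO replicate 2. NOP16, a nucleolar factor of the large subunit, read 9.73, 10.34 and 10.54 in DMSO and 10.61, 11.16 and 11.17 in DHT. Its groups just failed to meet, at 0.78 ± 0.30 SE, 1.72-fold (95% interval 0.14 to 1.42, adjusted p = 0.468), and its second probe gave 0.73. RRS1, which brings the 5S ribonucleoprotein to the particle, differed by 0.50 ± 0.18 SE (adjusted p = 0.403).

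The abundant nucleolar proteins were all above zero, with a median of 0.34. LYAR, a nucleolar zinc finger protein of growing cells, read 11.67, 11.65 and 11.91 in DMSO and 12.49, 12.12 and 12.45 in DHT. The groups did not overlap and differed by 0.61 ± 0.23 SE, 1.53-fold (95% interval 0.13 to 1.09, adjusted p = 0.444, and 0.0641 with the replicate block). A second LYAR probe gave 0.98. NCL, nucleolin, the brightest of this group, read 13.44, 13.38 and 13.74 in DMSO and 14.19, 13.66 and 13.52 in DHT. Its groups overlapped, the difference of 0.27 ± 0.21 SE was carried by the first DHT array, and it was 0.07 without DHT replicate 1. A second, dimmer NCL probe gave 0.41. DDX21, an RNA helicase of the nucleolus, differed by 0.34.

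**Figure D2:**
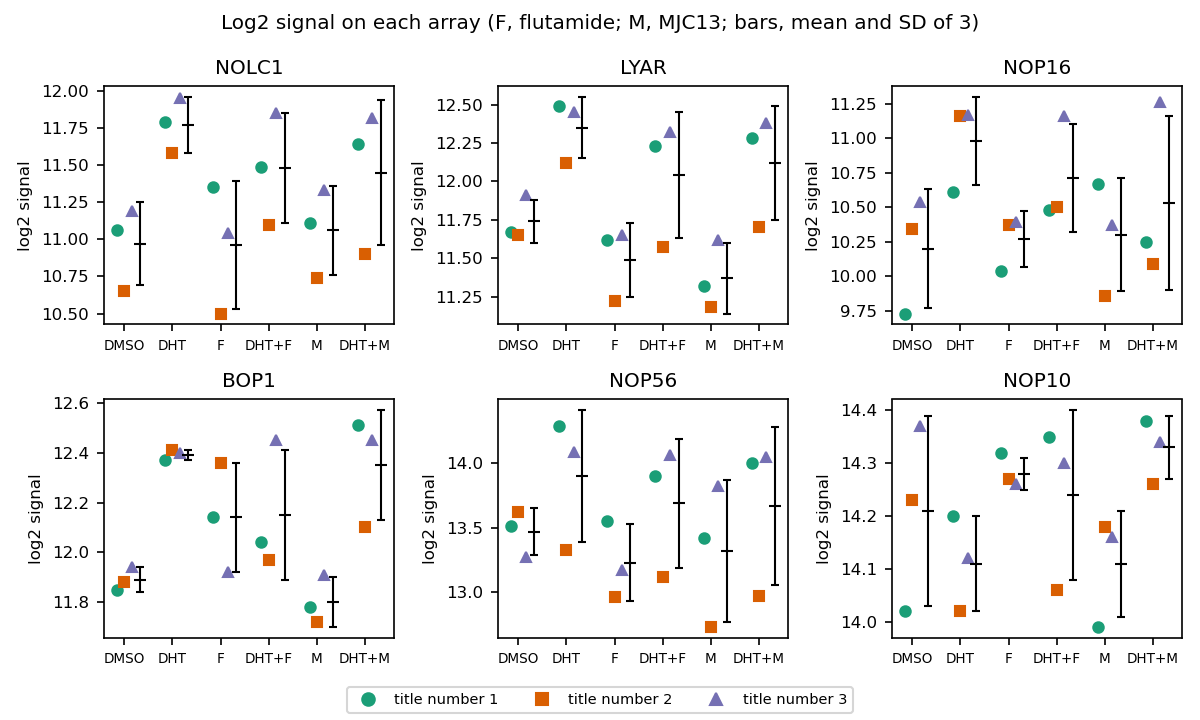
Log2 signal of 6 genes on each array (points, by the number in the array's title) with the mean and SD of 3 arrays beside them, for DMSO, DHT, flutamide (F), DHT with flutamide (DHT+F), MJC13 (M) and DHT with MJC13 (DHT+M). NOLC1, LYAR, NOP16 and BOP1 read higher on all 3 DHT arrays than on all 3 DMSO arrays, whereas NOP56 and NOP10 overlap, and the arrays of title number 2 are low in several groups.

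The next comparisons asked whether either antagonist alone moved these genes, and no difference was detectable. The median difference from DMSO was -0.02 for flutamide and -0.05 for MJC13, and 0 of 33 genes were called in each, where 0% of all probes were. The sign of both medians depended on single arrays, from -0.13 without DMSO replicate 2 to 0.01 without DMSO replicate 3 for flutamide, and from -0.12 without MJC13 replicate 3 to 0.06 without MJC13 replicate 2 for MJC13. At an unadjusted p of 0.05 0 genes were higher or lower with flutamide (1.45% and 1.12% of probes were), and with MJC13 1 was higher, TSR1 at 0.66, and 0 lower (1.05% and 1.19% of probes). LYAR was the single gene whose arrays separated, and it lay lower under both antagonists. It read 11.62, 11.22 and 11.65 with flutamide and 11.32, 11.18 and 11.62 with MJC13. The differences from DMSO were -0.25 ± 0.23 SE and -0.37 ± 0.23 SE, and 2.47% and 3.29% of all probes separated downwards where 2.44% and 3.35% did upwards. The 2 comparisons share the DMSO arrays, and with flutamide the gap was smaller than the rounding of the values given here.

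With flutamide present in both arms, DHT still went with higher values of most genes. The median difference was 0.20, 27 of 33 were above zero (48.9% of all genes), and the range was from -0.47 for POLR1A to 0.68 for RRP9. None was called, as was none of all probes, and 3 were higher at an unadjusted p of 0.05 (LYAR, RRP9 and RRS1) and 0 lower, where 2.47% and 2.17% of probes were. All arrays separated upwards for 5 genes (MRTO4, NOP16, RRP9, RRS1 and TSR1) and downwards for 0, against 3.72% and 3.44% of probes. The lowest value, that of POLR1A, came with 1 flutamide array at 7.80 where the others read 6.13 and 6.62. The probes of POLR1A and RRP9, the ends of the range, were dim, with means of 6.57 and 6.79 over all arrays.

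With MJC13 in both arms, the median was 0.23 and 29 of 33 genes were above zero (49.6% of all genes), from -0.22 for MRTO4 to 0.75 for LYAR. None was called here either, again as for all probes. At an unadjusted p of 0.05, 3 were higher (BOP1, LYAR and NIP7) where 2.83% of probes were, and 5 separated upwards (BOP1, LYAR, NIP7, NOP10 and WDR12) and 0 downwards, against 5.54% and 5.60% of probes. For WDR12 the brightest probe (mean 12.07) gave 0.28, and the other, nearly as bright (mean 11.95), gave -0.30. Positive differences in all 3 settings were found for 24 of the 33 genes, and UTP20 was the single gene negative in all 3 by its brightest probe. Its other probe gave positive values in all 3, 0.28 without antagonist, 0.41 with flutamide and 0.48 with MJC13. With MJC13 in both arms, another probe of GAR1, NHP2, NOP2, UTP14A and WDR12 also differed in sign from the brightest. With flutamide this held for NOP2 and WDR12, so the counts with an antagonist depend on the choice of probe.

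These medians moved with single arrays. The flutamide median was 0.12 without DHT_Flutamide replicate 3, 0.31 without Flutamide replicate 3 and 0.33 without DHT_Flutamide replicate 2. The MJC13 median was 0.09 without MJC13 replicate 2 and 0.11 without DHT_MJC13 replicate 3. The DHT median without antagonist stayed between 0.24 and 0.34 when any single array was left out.

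The change that each antagonist made to the DHT response was small beside its error. Flutamide changed it by a median of -0.08 and MJC13 by -0.11, with 20 and 21 of the 33 responses smaller, and 13 smaller under both. The 2 changes share the DMSO and DHT arrays. None of the 33 was called in either, as was none of all probes, and 0 had an unadjusted p under 0.05 in either (0.911% and 1.33% of probes higher and lower for flutamide, 1.76% and 2.15% for MJC13). A gene's change had a median 95% half-width of 0.68 log2, more than double the median response of 0.30, so neither a full block nor an intact response could be told for single genes. The androgen-regulated check genes, partly flagged as responders by the study, had median responses of 2.16 without antagonist, 0.68 with flutamide and 0.92 with MJC13.

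Values of the leading genes show the range. NOLC1 read 11.35, 10.50 and 11.04 with flutamide and 11.49, 11.10 and 11.85 with DHT and flutamide. It read 11.11, 10.74 and 11.33 with MJC13 and 11.64, 10.90 and 11.82 with DHT and MJC13. The groups overlapped in both cases. Its response was 0.80 without antagonist, 0.52 with flutamide and 0.39 with MJC13, and the changes were -0.29 ± 0.38 SE and -0.41 ± 0.38 SE.

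LYAR lay above its antagonist control in both settings. It read 12.23, 11.57 and 12.32 with DHT and flutamide and 12.28, 11.70 and 12.38 with DHT and MJC13, beside the antagonist values given above. The responses were 0.61, 0.55 and 0.75, and the changes -0.06 (95% interval -0.74 to 0.62) and 0.14 (-0.54 to 0.82). The MJC13 groups did not overlap while the flutamide groups did. Both antagonist controls lay below DMSO, as given above. Against DHT alone, LYAR differed by -0.31 ± 0.23 SE with DHT and flutamide and by -0.23 ± 0.23 SE with DHT and MJC13. A second LYAR probe gave responses of 0.98 without antagonist, 0.88 with flutamide and 0.60 with MJC13. By that probe the response under MJC13 was the lowest, not the highest.

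BOP1 had the largest excess of the response under MJC13 over that under flutamide. It read 12.14, 12.36 and 11.92 with flutamide and 12.04, 11.97 and 12.45 with DHT and flutamide. It read 11.78, 11.72 and 11.91 with MJC13 and 12.51, 12.10 and 12.45 with DHT and MJC13. The response was thus 0.01 under flutamide, whose arrays overlapped, and 0.55 under MJC13, whose arrays did not. The difference of the 2 responses was 0.54 ± 0.25 SE (unadjusted p = 0.0429, adjusted p = 0.996), the one unadjusted p under 0.05 of the 33, where 2.22% of probes were higher and 2.24% lower. With the replicate block RRP9, a protein of the U3 snoRNP, also fell under that p in the other direction, at -0.76 ± 0.27 SE (unadjusted p = 0.0126, adjusted p = 0.712). The RRP9 probe was dim, with a mean of 6.79 over all arrays. Over the set the difference between the responses under MJC13 and flutamide had a median of 0.01, from -0.76 for RRP9 to 0.54 for BOP1, with 17 above zero and 0 called, as for all probes.

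NOP16 had responses of 0.78 without antagonist, 0.44 with flutamide and 0.23 with MJC13. It read 10.04, 10.37 and 10.39 with flutamide and 10.48, 10.50 and 11.16 with DHT and flutamide, which separated. It read 10.67, 9.86 and 10.37 with MJC13 and 10.25, 10.09 and 11.26 with DHT and MJC13, which overlapped. Its changes were -0.34 ± 0.43 SE and -0.55 ± 0.43 SE. The second NOP16 probe gave responses of 0.73, 0.27 and 0.61, so the order of the antagonists depended on the probe.

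Measured directly against DHT, the arrays with DHT and an antagonist lay slightly lower. The median was -0.16 with flutamide, 26 of 33 below zero, and -0.11 with MJC13, 29 of 33 below zero, both against the same DHT arrays. There were 0 calls in each, as for all probes, and 0 genes at an unadjusted p of 0.05, where 0.618% of probes were higher and 0.918% lower for flutamide, and 1.31% and 1.78% for MJC13. The lowest values were LYAR at -0.31 with flutamide and MRTO4, a factor of ribosomal stalk assembly, at -0.55 with MJC13. NOP10 was the highest in both, at 0.12 and 0.21, and with MJC13 it was the one gene whose arrays separated, upwards, as did 4.17% of probes (4.63% downwards). With flutamide 0 genes separated, against 2.86% of probes upwards and 4.01% downwards. Without DHT_MJC13 replicate 2 the MJC13 median was 0.00, and without DHT_MJC13 replicate 3 it was -0.23. The flutamide median ran from -0.22 without DHT_Flutamide replicate 3 to -0.06 without DHT_Flutamide replicate 2, and was -0.07 without DHT replicate 3.

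A score was formed as the mean over the 34 genes with a probe of their log2 difference from the DMSO mean. It read -0.03, -0.06 and 0.09 on the DMSO arrays and 0.26, 0.22 and 0.38 on the DHT arrays, which did not overlap. With flutamide it read -0.08, -0.05 and 0.03, and with DHT and flutamide 0.16, -0.01 and 0.36. With MJC13 it read 0.02, -0.23 and 0.09, and with DHT and MJC13 0.20, -0.11 and 0.38. Each group with DHT and an antagonist held 1 array at the level of the highest DHT array and 1 within or below the range of DMSO. Group means were 0.29 ± 0.08 (SD, n = 3) for DHT, 0.17 ± 0.19 for DHT with flutamide and 0.16 ± 0.25 for DHT with MJC13. Between arrays of the same title number, the score with DHT and flutamide differed from that with DHT by -0.10, -0.23 and -0.01 (numbers 1, 2 and 3), and the score with DHT and MJC13 by -0.06, -0.33 and 0.01. All 3 differences with flutamide and 2 of 3 with MJC13 were thus below zero, number 3 lying closest to it, and both sets use the same DHT arrays.

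**Figure D3:**
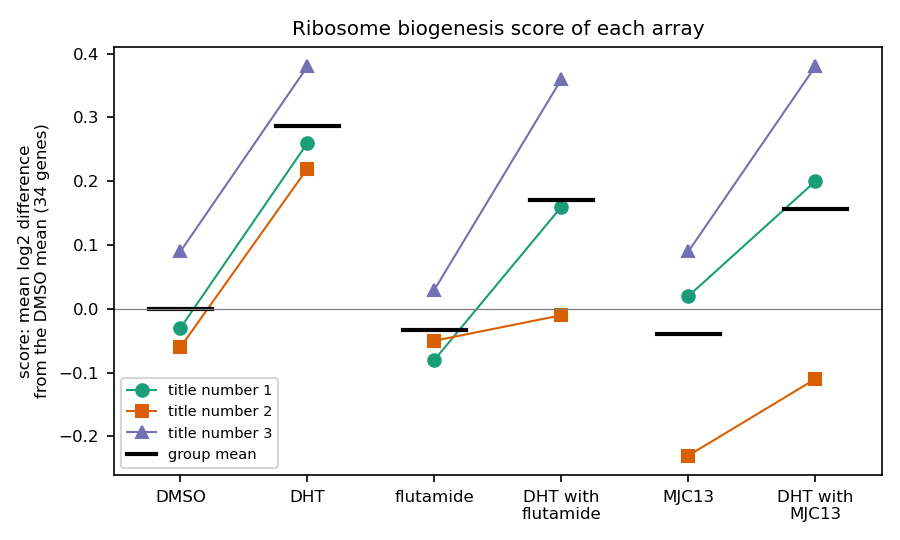
Score of each array (mean log2 difference of 34 genes from the DMSO mean), with lines joining arrays of the same title number without and with DHT, and bars for group means. All 9 lines end higher with DHT, and title number 3 is the highest array of every group.

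The spread had an order that followed the number in the array titles. Number 3 had the highest score in all 6 groups, and number 2 the lowest in 5 of them. Subtracting arrays of the same number gave DHT differences of the score of 0.29, 0.28 and 0.29 without antagonist, 0.25, 0.04 and 0.33 with flutamide, and 0.19, 0.12 and 0.29 with MJC13, all 9 positive. By gene, 5 of the 33 were positive in 9 of 9 such differences (NOLC1, POLR1C, UTP14A, RRS1 and LYAR), where 2.80% of all genes were, and 8 more in 8 of 9, where 4.34% were. The 3 numbers share no label that says what they stand for, and the number in the description field differs from that in the title for 11 of the 18 arrays.

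The difference between the numbers was then tested itself, a comparison added after the scores were seen. Across all 6 groups, number 3 was called higher than number 2 for 7 of 33 genes and lower for 0, where 4.57% and 4.55% of all probes were. The 7 were RRP1B (0.80 ± 0.13 SE, adjusted p = 0.00116), NOLC1 (0.62 ± 0.12 SE, adjusted p = 0.00287), LYAR, RRP12, PPAN, NOP56 and BYSL, from every role but RNA polymerase I. The median over the 33 was 0.29, with 30 above zero, as large as the median DHT difference of 0.30. Within single groups, number 3 read above number 2 for 22 genes in DMSO, 24 in DHT, 19 with flutamide, 30 with DHT and flutamide, 28 with MJC13 and 32 with DHT and MJC13. Number 2 was called lower than number 1 for 4 genes and higher for 0 (1.38% and 0.491% of probes), and number 3 against 1 gave 0 calls (0.791% of probes higher and 1.27% lower). Leaving out the 6 arrays of number 2 gave median DHT differences of 0.30, 0.30 and 0.24 without antagonist, with flutamide and with MJC13, and 0 calls. What sets the numbers apart was not tested.

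**Figure D4:**
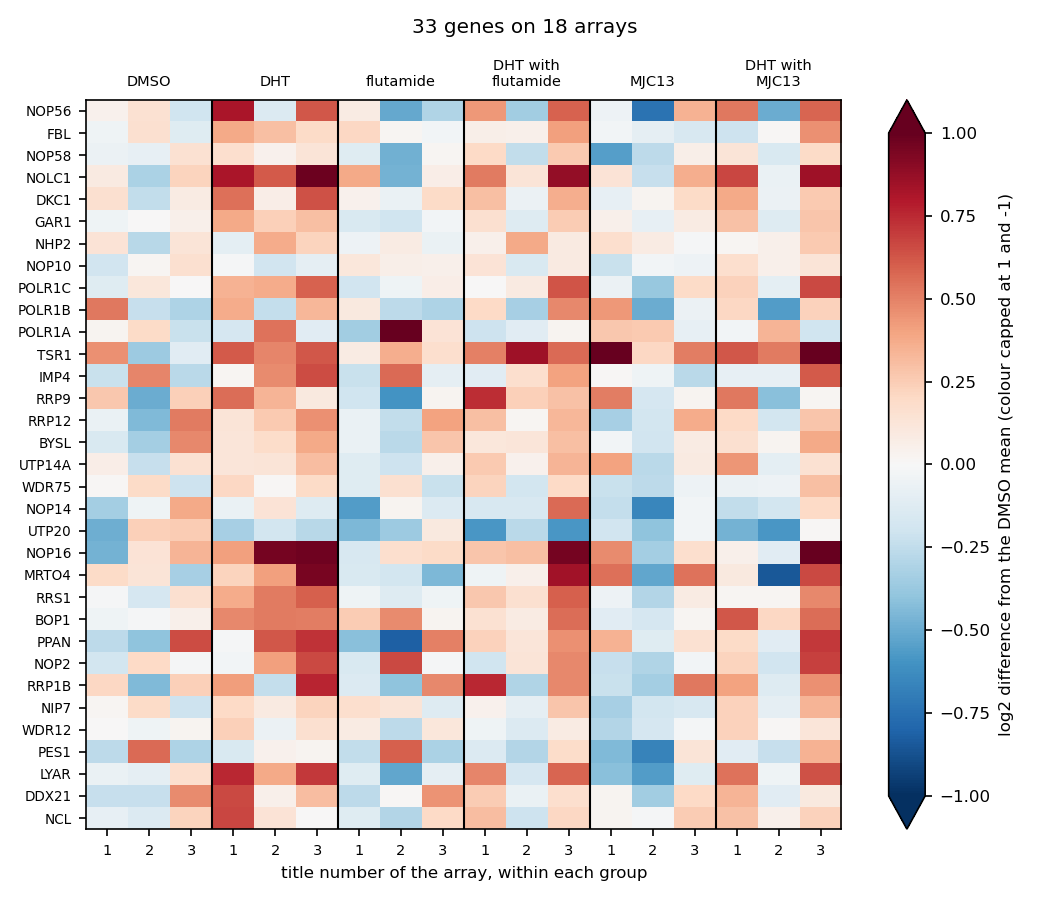
Log2 difference of each of 33 genes from its DMSO mean on the 18 arrays, in 6 blocks of 3 by group, with genes ordered by role and DHT response. Columns of DHT are mostly red, the columns numbered 2 in both groups with DHT and an antagonist are mostly pale or blue, and those numbered 3 there are mostly red.

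The same comparisons were made for ribosome biogenesis factors outside the set. Of 97 such genes 94 were tested, and between DHT and DMSO 77 were above zero, as were 48.0% of all tested genes, with a median of 0.24 and 0 called. At an unadjusted p of 0.05, 15 were higher and 0 lower, where 4.86% and 3.42% of all probes were. Large subunit factors had a median of 0.28 (38 of 44 above zero), small subunit factors 0.22 (29 of 36) and further polymerase I factors 0.07 (10 of 14). With flutamide in both arms the median of the 94 was 0.15 and with MJC13 0.14. CCDC86, a nucleolar protein, was called with the replicate block only (0.82 ± 0.38 SE, adjusted p = 0.586, and 0.0426 with the block). It read 11.58, 10.62 and 12.27 in DMSO and 12.29, 12.08 and 12.58 in DHT, and these overlapped.

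The genes of the ribosomal proteins themselves lay near zero. Their median was -0.02 over 69 tested, with 31 above zero and 0 called, and with flutamide and MJC13 it was -0.05 and 0.01. RPL29 was the one called with the block, at 12.66, 12.77 and 13.17 in DMSO and 13.36, 13.45 and 13.74 in DHT without overlap (0.65 ± 0.18 SE, adjusted p = 0.198, and 0.0326 with the block).

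MYC was measured at 12.78, 12.59 and 12.67 in DMSO and 13.01, 12.95 and 13.41 in DHT. The groups did not overlap, at a difference of 0.44 ± 0.22 SE (adjusted p = 0.636, and 0.236 with the block), and the responses under flutamide and MJC13 were 0.28 and 0.32. MYC also read lowest on the arrays of number 2 in every group. The 11 tested genes of the MYC network had a median of -0.10, with 5 above zero and 0 called. The list holds both MYC and proteins that pair with MAX in its place, so this median does not describe MYC activity. MXD3, which pairs with MAX in place of MYC, was at 1.03 ± 0.36 SE (adjusted p = 0.372, and 0.0490 with the block), with arrays of 6.81, 6.08 and 7.45 in DMSO against 7.62, 8.02 and 7.80 in DHT, all higher.

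**Figure D5:**
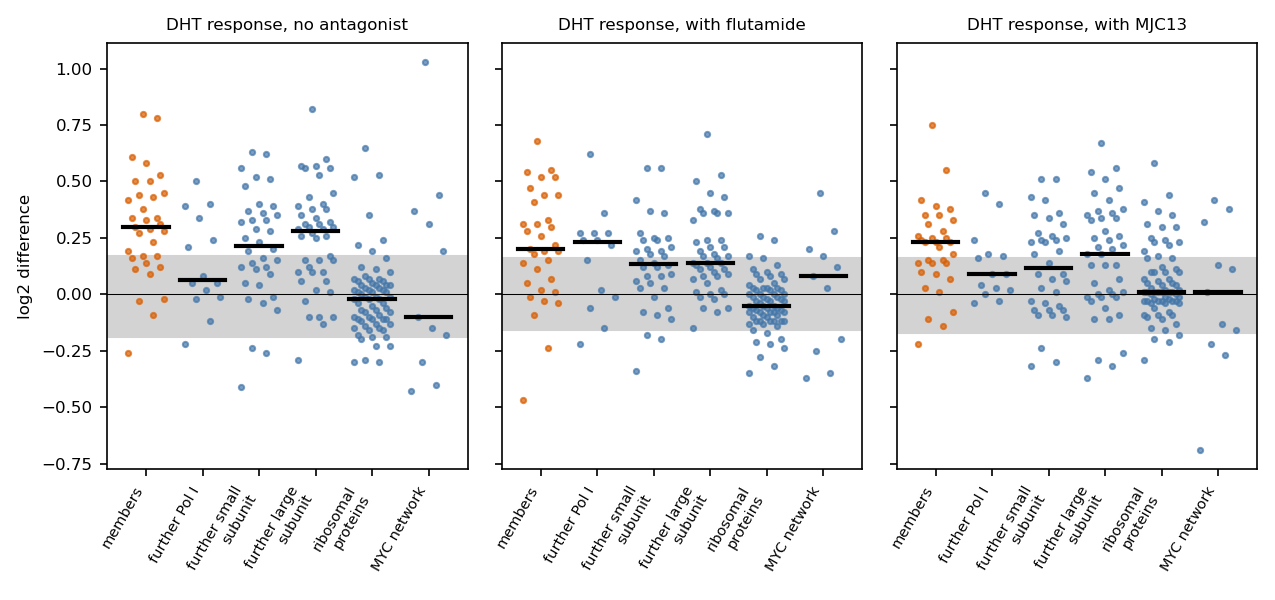
Log2 difference of each gene (points) and the median (bar) for the 33 genes of the set, further polymerase I, small subunit and large subunit factors, ribosomal proteins and the MYC network, in the 3 DHT comparisons; the grey band spans the middle 50% of all tested genes. Without antagonist the medians are 0.30, 0.07, 0.22, 0.28, -0.02 and -0.10.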

How the data were processed

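RNA from 18 samples of LNCaP cells was hybridized to Illumina expression arrays. Signals came from GenomeStudio and were corrected for background and quantile-normalized by the authors in lumi (versions not given in the sources used here). The deposited table holds log2 values. Whether plain log2 or variance stabilization was used is not stated. Differences are therefore on that scale and may be compressed for dim probes. A table of signals before normalization (36 columns for 18 array codes) could not be tied to samples and was not used.

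Dim probes, those whose mean over the arrays was at or under the 40th percentile, were left out, which kept 28334 of 47223. Gene symbols came from the platform annotation. A means model of 6 groups was fitted with limma 3.58.1 in R 4.3.3 (12 residual degrees of freedom, empirical Bayes moderation), with Benjamini-Hochberg adjustment over all tested probes and calls at an adjusted p of 0.05. The fit was checked on simulated data with independent noise and no effect of title number, so the check does not cover that part of the spread. Alternatives were other filters, moderation, arrays, probes, centering, threshold and replicate blocks. The precision is limited by 3 arrays a group.

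The 36 genes and all lists were chosen with earlier results of these data known. Array values are given for the brightest gene of each role, any gene called between DHT and DMSO or in a change of that response, with or without the block, and the 3 largest and 3 smallest DHT differences; outside the set, for MYC and the genes called with the block (RPL29, CCDC86 and MXD3). Promoters are those of named genes with an E-box. KLK2 was added as a check after its values were seen.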

Additional observations from a re-analysis of the deposited data

How the results depend on the processing

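The results were recomputed under 10 alternatives, of which leaving out the arrays of title number 2 was added after the data were seen, and without each of the 18 arrays. No alternative other than the title-number replicate block changed a count of calls among the 33 genes or the wider lists. With that block, 1 of the 33 (NOLC1, log2 difference 0.80, adjusted p = 0.0173) and 3 of the 177 genes of the wider lists with a probe (CCDC86, MXD3 and RPL29) were called between DHT and DMSO, against 0 and 0. All these calls were higher in DHT, as were 1.28% of all probes under the block, a share near that of the wider lists. With the description number as the block, NOLC1 was at 0.70 (adjusted p = 0.544). The same title number does not establish pairing: deviations correlated by over 0.1 in every pair for 5 of 15 pairs of groups, DMSO with DHT not among them, although 17 of 18 arrays correlated best with an array of their own number. PES1 ran from -0.18 to 0.26 without single arrays and changed sign between DHT and DMSO, from -0.03 to 0.26 without DMSO replicate 2, 0.03 without DHT replicate 1 and 0.22 without the arrays of number 2. Without single arrays the median change of the DHT response ran from -0.16 to 0.00 for flutamide and from -0.20 to 0.03 for MJC13, the upper ends without DHT_Flutamide replicate 2 and DHT_MJC13 replicate 2. The median DHT difference was 0.33 over every annotated probe and 0.29 with arrays centered.

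With 3 arrays a group and a median 95% half-width of 0.48 log2, a change of the median size seen here cannot be called for most single genes. Dim probes (POLR1A, UTP20, RRP9, NPM1) lie near the floor, where signal and background cannot be told apart. Bulk signals do not separate a change of RNA per cell from a change in the share of cells that express a gene. Arrays normalized to one distribution show changes relative to all other genes only.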
